A study of Sus scrofa with 23 samples.

Results

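The SLC25 genes encode the mitochondrial carriers, and the genes described here are all those whose symbol in the transcript annotation of the series is SLC25A followed by a number. This rule found 45 of 26687 genes, with 155 transcripts. Of the 45 genes, 44 had at least 10 estimated counts in at least 12 of the 23 libraries, and in fact had them in every library. The exception was SLC25A31.

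RNA of the kidney cortex was sequenced from 23 newborn pigs, 1 library per pig, with no treatment named. The labels give 11 CFTR-/- pigs (CF), 6 CFTR+/- pigs (HET) and 6 wild-type pigs (WT). CFTR encodes the anion channel that is defective in cystic fibrosis. The study compared CF with non-CF pigs, so the libraries labelled WT and HET together make 12 non-CF libraries. The CF piglets came from matings of CFTR+/- animals, and neither sex nor litter is labelled.

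Carriers of this family sit mostly in the inner mitochondrial membrane and move nucleotides, phosphate, carboxylates, amino acids, cofactors and iron between cytosol and matrix. Most work as exchangers that bind a substrate alternately from either side. In the kidney cortex the proximal tubule cells are rich in mitochondria, and their reabsorption, ammonia production and gluconeogenesis depend on these carriers.

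SLC25A6, the most abundant member, and its relatives SLC25A4 and SLC25A5 are the ADP/ATP carriers, which export ATP from the matrix in exchange for ADP. Their coding sequences carry a signature of 3 arginine codons followed by 3 methionine codons, and the stretches around it are shown because they show how far reads of these close relatives can be told apart. They are 60 coding bases each, in the sense of the gene from codon 235 of 897 coding bases, read from RefSeq on Sscrofa11.1. Each spans 1 exon join, and the 18 bases in capitals are the 6 signature codons.
SLC25A4: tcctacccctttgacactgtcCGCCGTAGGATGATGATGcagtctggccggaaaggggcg
SLC25A5: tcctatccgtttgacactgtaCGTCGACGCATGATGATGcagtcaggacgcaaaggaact
SLC25A6: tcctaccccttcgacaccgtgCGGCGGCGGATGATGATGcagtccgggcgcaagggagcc
The first lies at chr15:46196325-46197480 on the plus strand and the second at chrX:97921416-97921829 on the plus strand. The third lies on the minus strand of an unplaced scaffold, from 793531 to 793849. SLC25A4 and SLC25A5 differed at 13 of the 60 bases, SLC25A4 and SLC25A6 at 12, and SLC25A5 and SLC25A6 at 13. None of the 3 genes shared a run of 31 bases, the length kallisto matches by default, with a transcript of another gene.

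The gene that passed the test between genotypes was SLC25A36, a carrier of pyrimidine nucleotides, and its 2 annotated transcripts start at different first exons. The coding part of each first exon is shown because values are given for each transcript, with the start codon in capitals.
SLC25A36, transcript with the short last exon: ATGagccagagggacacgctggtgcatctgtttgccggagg
SLC25A36, transcript with the long last exon: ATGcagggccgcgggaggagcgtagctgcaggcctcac
The first lies at chr13:81750233-81750273 and the second at chr13:81750620-81750657, both on the plus strand. The transcripts share the stop codon and the start of the last exon, which is 409 bases long in the first and 4016 bases in the second. The 3607 extra bases lie past the stop codon.

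Libraries held between 32901281 and 52952273 estimated counts. Gene counts are given as CPM, counts scaled to a common library size after correction by edgeR's TMM factors, and levels of different genes are compared only as TPM, the kallisto unit that divides by transcript length. CFTR RNA was lowest in libraries labelled WT, where its CPM ran from 1.27 to 3.67. It ran from 9.40 to 17.5 in HET and from 12.5 to 23.5 in CF. The labels give genotype and not RNA level, and the reason for this order was not tested. The pigs also fell into 2 sets, found in the data and not named in the labels. Pigs 1 to 6 and 12 to 18 (13 libraries) are called earlier-numbered here, and the other 10 later-numbered. Values within each set are given where they bear on a result. EIF1AY, a Y-linked gene, was above 1 CPM in 6 of 11 libraries labelled CF, 5 of 6 HET and 2 of 6 WT. As a check of the tissue, all 14 proximal tubule markers listed, all 7 of the distal segments (loop and distal tubule) and all 6 of the collecting duct were above 1 CPM in some library of each genotype. In bulk tissue, fewer cells of a type and less RNA per cell cannot be told apart.

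The carriers spanned a wide range of levels. In WT libraries 3 members had a median of at least 100 TPM, 26 lay between 10 and 100 TPM, 15 between 1 and 10 TPM, and 1 below 1 TPM. SLC25A6 ranked 54 among all 26687 genes by its median over WT libraries.

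The TPM of SLC25A6 ranged from 765 to 1002 over the 6 WT libraries, with a median of 825. SLC25A3, the phosphate carrier that supplies ATP synthase and also brings copper into the matrix, ran from 195 to 327 with a median of 262. SLC25A5 ran from 107 to 271 with a median of 197. SLC25A6 therefore stood above SLC25A3 in all 6 WT libraries without overlap, and SLC25A3 stood above SLC25A5 in each of the 6 although their ranges overlapped. Together the 3 ADP/ATP carriers made up a median of 50.1% of the summed TPM of the family in WT libraries (48.2% to 53.6%).

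The next 5 members lay close together. SLC25A11, the oxoglutarate carrier of the malate-aspartate shuttle, had a median of 77.3 TPM in WT libraries (61.9 to 83.9). SLC25A1, the citrate carrier, had 74.6 TPM (64.6 to 80.7), and SLC25A4 had 74.0 TPM (65.6 to 130). SLC25A36 had 66.0 TPM (54.1 to 79.3), and SLC25A10, the dicarboxylate carrier, 58.7 TPM (35.0 to 72.9). Each of these 5 ranges overlapped that of the next member in the order, while SLC25A11 lay wholly below SLC25A5. SLC25A11 was above SLC25A1 in 4 of 6 WT libraries and SLC25A1 above SLC25A4 in 2 of 6. Of the 44 pairs of neighbours in the whole order, only 5 had WT ranges that did not overlap.

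**Figure D1:**
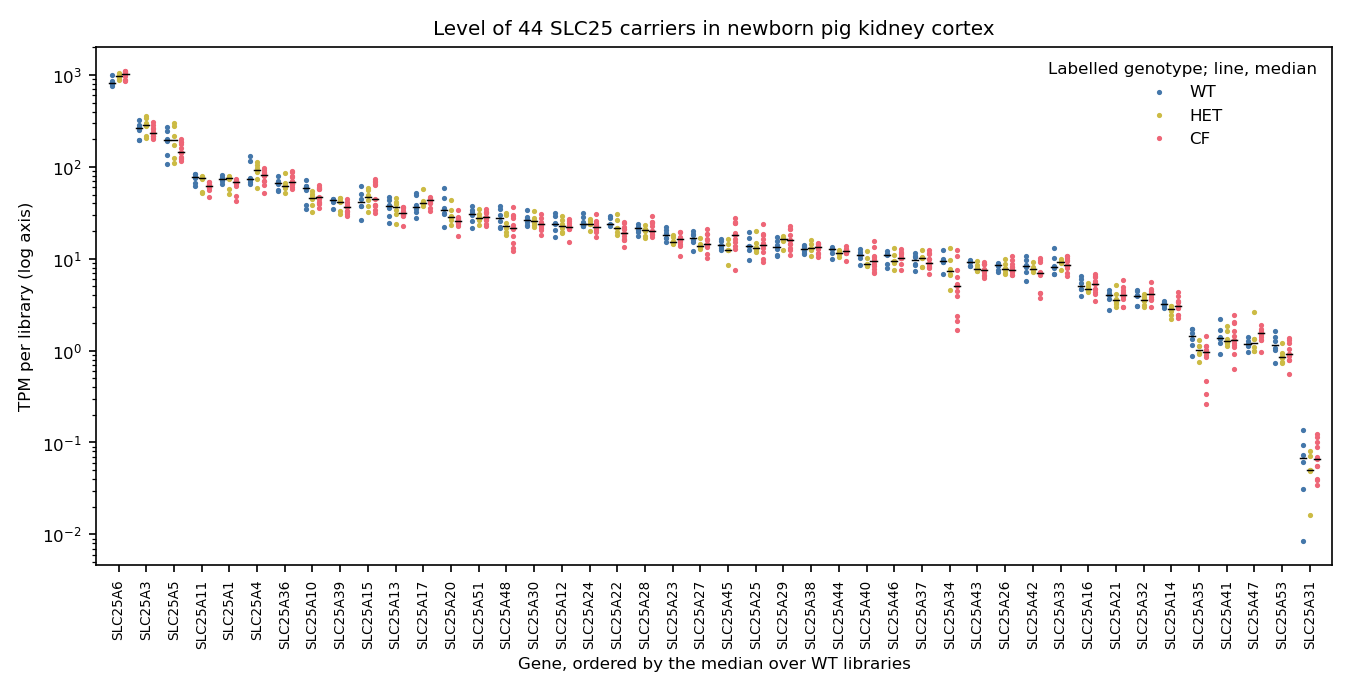
TPM of 44 SLC25 genes in each of 23 libraries on a log axis, coloured by labelled genotype, with a line at each group's median and the genes ordered by their WT median. SLC25A6 stands alone at the top, most members form a slope between 100 and 1 TPM with overlapping genotypes, and SLC25A31 stands alone at the bottom.

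In the middle of the order were carriers of amino acids and related compounds. The medians over WT libraries were 43.3 TPM for SLC25A39, a glutathione carrier, 41.1 TPM for SLC25A15, which exchanges ornithine and citrulline, and 37.4 TPM for SLC25A13 and 24.2 TPM for SLC25A12, the aspartate-glutamate carriers. SLC25A22, a glutamate carrier, was at 23.7 TPM, SLC25A29, a carrier of basic amino acids, at 13.3 TPM, SLC25A44, a carrier of branched-chain amino acids, at 12.7 TPM, SLC25A38, which supplies glycine for haem synthesis, at 12.7 TPM, and SLC25A40, the other glutathione carrier, at 11.07 TPM.

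Carriers of cofactors and nucleotides other than SLC25A36 had medians over WT libraries of 36.7 TPM for SLC25A17, a peroxisomal carrier of CoA and related cofactors, 31.1 TPM for SLC25A51, the NAD carrier, and 8.45 TPM for SLC25A26, the S-adenosylmethionine carrier. SLC25A42, a CoA carrier, had 8.37 TPM, SLC25A33, the other pyrimidine nucleotide carrier, 8.12 TPM, SLC25A16 5.11 TPM and SLC25A32, linked to folate and FAD, 3.95 TPM. SLC25A20, which carries acylcarnitines into the matrix for fatty acid oxidation, was at 33.8 TPM. The mitoferrins that import iron, SLC25A28 and SLC25A37, were at 21.4 and 9.60 TPM.

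Of the calcium-regulated ATP-Mg carriers, SLC25A24 had a WT median of 24.0 TPM, SLC25A23 18.04, SLC25A25 13.7 and SLC25A41 1.37. Relatives of the uncoupling proteins were SLC25A30 at 26.5 TPM, SLC25A27 at 16.9 and SLC25A14 at 3.23. SLC25A34 was at 9.46 TPM, SLC25A21, the oxoadipate carrier, at 4.02 and SLC25A35 at 1.45. The little characterised members and the outer membrane protein SLC25A46 were SLC25A48 at 27.8 TPM, SLC25A45 at 13.99, SLC25A46 at 11.0, SLC25A43 at 9.29, SLC25A47 at 1.18 and SLC25A53 at 1.16.

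At the count threshold, SLC25A35 was the lowest member inside, with at least 14 counts in every library. SLC25A31, an ADP/ATP carrier best known from germ cells, lay outside, with at least 10 counts in 4 libraries and at most 14. Its median was 0.0671 TPM in WT, so of the 4 ADP/ATP carriers only 3 were measured well in this tissue.

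CF against non-CF asks which carriers differ in the pigs labelled as having no intact CFTR allele, and it was tested with the quasi-likelihood F test of edgeR, adjusted over all genes by Benjamini-Hochberg. SLC25A36 was higher in libraries labelled CF, and no other carrier passed an adjusted p of 0.05. In this comparison 0.349% of the 20921 genes tested passed, against 1 of 44 carriers. At an unadjusted p under 0.05 there were 9 of 44 carriers, where 13.7% of all genes reached it. The median log2 fold change was -0.02 over the 44 carriers and -0.00 over all genes tested, with 21 carriers above 0 (49.8% of all genes were) and 23 below. No carrier had groups that did not overlap, where 0.00478% of all genes did.

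SLC25A36 reached 102 CPM in the lowest, 122 in the median and 157 in the highest of the 12 non-CF libraries. The libraries labelled CF had 144 CPM in the lowest, 157 in the median and 189 in the highest. All 11 libraries labelled CF were above the non-CF median, and only 2 non-CF libraries lay within the CF range. The means were 160 ± 15.4 CPM (SD, n = 11) and 126 ± 16.04 CPM (SD, n = 12), a log2 fold change of 0.34 (SE 0.068, 95% interval 0.20 to 0.48, edgeR adjusted p = 0.0276). Leaving out 1 library at a time gave adjusted p values from 0.0115 to 0.0587, and the call was lost without CF pig 6, 7 or 8, HET pig 21, or WT pig 16 or 18. It was also lost without the 3 libraries with high FOS, CF pig 1, WT pig 12 and HET pig 20 (edgeR adjusted p = 0.0799).

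The values of SLC25A36 were also taken for each of its 2 transcripts. The TPM of the transcript with the long last exon ran from 12.03 to 24.2 in non-CF libraries with a median of 17.2, and from 17.6 to 36.7 in libraries labelled CF with a median of 24.1. That of the transcript with the short last exon ran from 38.5 to 60.7 in non-CF libraries with a median of 46.6, and from 36.8 to 55.0 in CF with a median of 47.1. The CF values were shifted upward for the first transcript, and the ranges nearly coincided for the second.

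In a fit of 49377 transcripts, the transcript with the long last exon had a difference of 0.51 on the log2 scale (SE 0.095, edgeR p = 1.7e-05, adjusted p = 0.0714), which did not pass. The transcript with the short last exon had -0.00 (SE 0.073). In that fit 0.00405% of all transcripts passed and none of the 124 carrier transcripts tested did, while 12 carrier transcripts reached an unadjusted p under 0.05 (9.68%, against 7.61% of all transcripts). Leaving out 1 library at a time moved the adjusted p of the long form between 0.0378 and 0.172, with 2 of 23 fits under 0.05.

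The long form made up 35.0% ± 5.77 of the gene's summed TPM in libraries labelled CF (SD, n = 11) and 27.3% ± 3.16 in non-CF libraries (SD, n = 12). The difference of 7.78 percentage points had a two-sided permutation p of 0.00086 (100000 resamples). This share was examined after the call of the gene had been seen. It comes from the same libraries and reads as that call, so its p is not separate support for the call. In 7 of 11 libraries labelled CF the share was above every non-CF library. Within the earlier-numbered pigs the means were 36.9% in CF and 26.7% in non-CF libraries, and within the later-numbered pigs 32.8% and 28.0%.

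Because the long form gives many more reads per molecule, the size of the change in SLC25A36 depends on the unit. With counts scaled by transcript length the log2 fold change was 0.16 (SE 0.058, edgeR adjusted p = 0.186). The summed TPM of the gene ran from 52.4 to 84.9 in non-CF libraries and from 57.1 to 91.0 in CF, with medians of 65.0 and 68.2, so the groups overlapped almost completely on that scale.

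**Figure D2:**
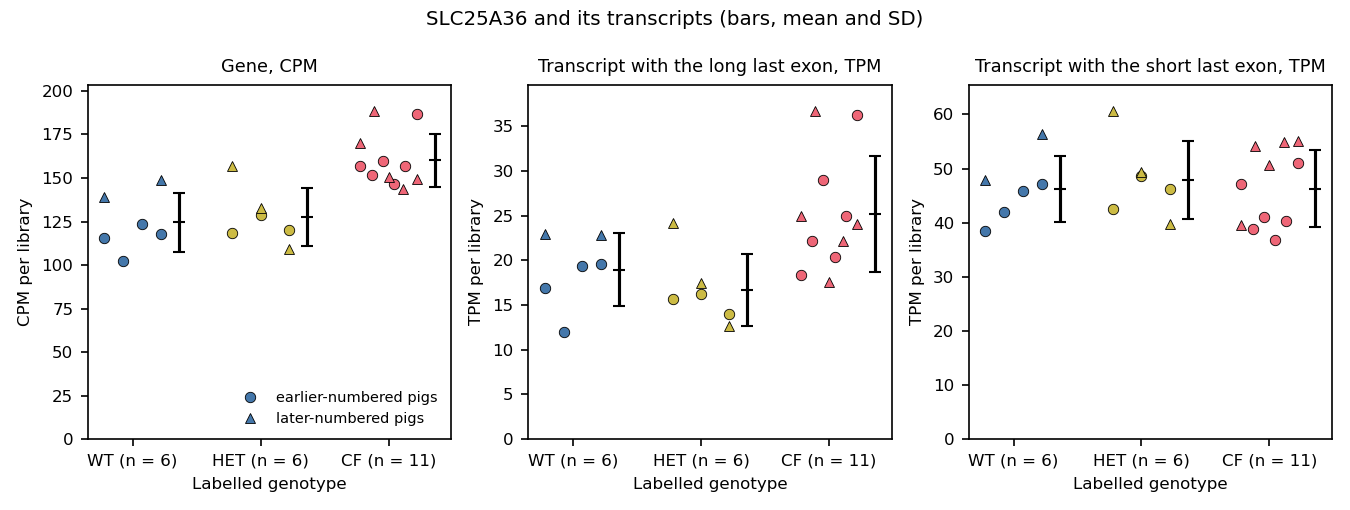
SLC25A36 in each library by labelled genotype, as CPM of the gene (left), TPM of the transcript with the long last exon (middle) and TPM of the transcript with the short last exon (right), with mean and SD beside the points, circles for earlier- and triangles for later-numbered pigs. Libraries labelled CF are shifted up in the left and middle panels and not in the right panel.

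The 4 carriers with the next smallest p values did not pass the adjustment, and 3 of them are described. SLC25A45, a little characterised member, ran from 15.6 to 63.0 CPM in libraries labelled CF with a median of 34.7, and from 19.4 to 35.3 in non-CF libraries with a median of 25.8. Its log2 fold change was 0.49 (SE 0.153, edgeR adjusted p = 0.132), and every non-CF value lay within the CF range. SLC25A43, on the X chromosome, ran from 15.9 to 18.4 CPM in CF with a median of 17.6, and from 17.6 to 21.1 in non-CF libraries with a median of 19.2. All 11 libraries labelled CF were below the non-CF median.

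The log2 fold change of SLC25A43 was only -0.14 (SE 0.045, edgeR adjusted p = 0.141), on the smallest spread of any member (SD 0.10 on the log2 scale over 23 libraries). With EIF1AY as a covariate it was -0.14 (SE 0.046). Against WT alone it was the 1 carrier whose groups did not overlap, with 18.6 to 20.2 CPM in WT libraries, where 0.219% of all genes had groups apart. By the Mann-Whitney U test, which the study used, SLC25A43 and SLC25A36 each had an exact p of 9.91e-05 and an adjusted p of 0.0451.

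SLC25A20 ran from 28.1 to 51.1 CPM in CF with a median of 42.2, and from 34.6 to 83.4 in non-CF libraries with a median of 49.8. Its log2 fold change was -0.36 (SE 0.124, edgeR adjusted p = 0.181), and 10 of 11 libraries labelled CF lay below the non-CF median. The groups overlapped widely.

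**Figure D3:**
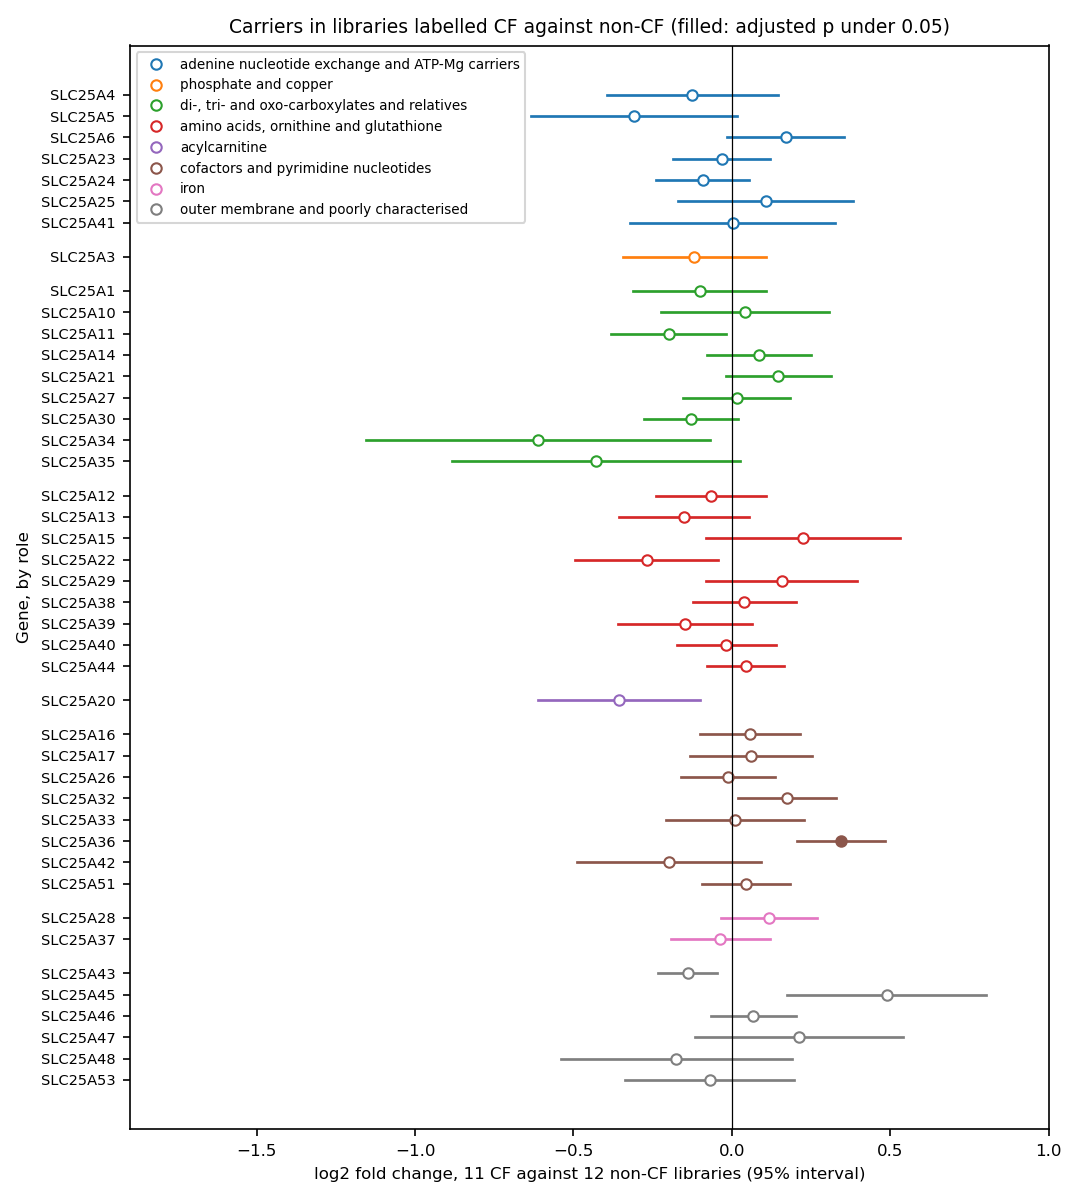
Log2 fold change of carriers that passed the count threshold, all but 1 of the 44, 11 libraries labelled CF against 12 non-CF, with 95% intervals, grouped and coloured by role, with a filled point where the adjusted p was under 0.05. The filled point is SLC25A36 at 0.34, and the widest interval is that of SLC25A34.

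By role, most carriers had narrow intervals. For 35 of 44 carriers the 95% interval stayed within 0.5 on the log2 scale in both directions, and for 43 of 44 within 1. The exception at 1 was SLC25A34, at -0.61 on the log2 scale (95% interval -1.16 to -0.07, edgeR adjusted p = 0.295). Of the 3 ADP/ATP carriers, SLC25A6 was at 0.17 on the log2 scale (95% interval -0.01 to 0.35) and SLC25A5 at -0.31 (-0.63 to 0.02). SLC25A4 was at -0.12 (-0.39 to 0.14), and at 0.11 in the earlier-numbered pigs alone. All 3 intervals included 0, and a difference between these genes was not tested.

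Of the other members with the highest levels, SLC25A3 was at -0.12 on the log2 scale (95% interval -0.34 to 0.11) and SLC25A11 of -0.20 (-0.38 to -0.02). SLC25A1 had -0.10 (-0.31 to 0.11) and SLC25A10 0.04 (-0.22 to 0.31). Of these, SLC25A11 alone reached an unadjusted p under 0.05 in edgeR, with an adjusted p of 0.305. SLC25A10 is uncertain, since 53.5% of its 31-base runs also lie, on either strand, in transcripts of other genes, a gene overlaps it on the other strand, and the strand setting of the counting is not given in the sources used here.

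SLC25A36, the 1 carrier past the adjusted threshold, belongs to the carriers of cofactors and pyrimidine nucleotides. Of 9 carriers of cofactors and pyrimidine nucleotides tested, 6 had a log2 fold change above 0 (median 0.05), and of 9 carriers of di-, tri- and oxo-carboxylates and relatives, 5 were below 0 (median -0.10). Of 9 carriers of amino acids, ornithine and glutathione 5 were below 0 (median -0.02), among them SLC25A22 at -0.27 (SE 0.110, edgeR adjusted p = 0.261). SLC25A32 had 0.17 (SE 0.075, edgeR adjusted p = 0.295). Both mitoferrins stayed near 0, with 0.12 for SLC25A28 and -0.04 for SLC25A37.

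Against WT alone, 0.336% of 21434 genes passed in libraries labelled CF and 0 of 44 carriers did, while 10 carriers reached an unadjusted p under 0.05 in edgeR (14% of all genes). The 3 smallest p values belonged to SLC25A36, SLC25A6 and SLC25A20. SLC25A36 was at 0.36 on the log2 scale (SE 0.085, edgeR adjusted p = 0.0579), with 102 to 149 CPM in WT libraries and a median of 121. With the pig set as a term it passed, at 0.35 (SE 0.081, edgeR adjusted p = 0.0391). SLC25A20 had -0.43 (SE 0.149, edgeR adjusted p = 0.178), with 34.6 to 83.4 CPM in WT libraries and a median of 51.2. Without WT pig 22 it was -0.27, and leaving out each library in turn gave -0.53 to -0.27. Markers of the tubule moved beside these values. In the same comparison 12 of 14 proximal tubule genes lay above 0, with AQP1 passing, and 6 of 7 distal genes lay below 0. UMOD, the distal gene above 0, was at 0.52. The part of these markers was not tested.

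SLC25A6 ran from 823 to 1096 CPM in WT libraries with a median of 957, from 967 to 1317 in HET with a median of 1237, and from 993 to 1510 in CF with a median of 1162. In CF against WT its log2 fold change was 0.35 (SE 0.095, edgeR adjusted p = 0.0878), and 8 of 11 libraries labelled CF were above the highest WT library. DESeq2 called it in this comparison (adjusted p = 0.0171), and SLC25A36 too (adjusted p = 0.00595). In HET against WT it was 0.34 (SE 0.106, edgeR adjusted p = 0.525), and 5 of 6 libraries labelled HET were above the highest WT library. These 2 comparisons share the 6 WT libraries, so they are not independent of each other. Between CF and HET the log2 fold change was 0.01.

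HET against WT compares the labels with 1 and with no disrupted CFTR allele. 1 of 21434 genes passed (0.00467%) and 0 of 44 carriers did. That gene was CFTR, whose RNA was higher in libraries labelled HET (12.6 ± 2.76 CPM) than in WT (2.26 ± 0.794 CPM, SD, n = 6 each). At an unadjusted p under 0.05 in edgeR there were 3 carriers, where 8.0% of all genes reached it. Leaving out 1 library at a time gave 1 to 6 carriers, with 1 without WT pig 12, 5 without HET pig 13 or WT pig 23, and 6 without HET pig 15 or WT pig 22. With all libraries these were SLC25A6 and 2 others. SLC25A29 ran from 74.8 to 104 CPM in libraries labelled HET with a median of 90.2, and from 52.4 to 92.1 in WT with a median of 71.2, a log2 fold change of 0.36 (SE 0.146, edgeR adjusted p = 0.586). SLC25A17 ran from 63.1 to 82.2 CPM in HET with a median of 66.0, and from 43.3 to 72.6 in WT with a median of 53.9, a log2 fold change of 0.27 (SE 0.120, edgeR adjusted p = 0.611). Its log2 fold change was 0.41 in the earlier-numbered pigs, with means of 65.5 CPM in HET and 49.3 in WT, and 0.01 in the later-numbered pigs, with 71.4 CPM in both. That of SLC25A29 was 0.46 in the earlier- and 0.19 in the later-numbered pigs.

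For each of these 3 genes all 6 libraries labelled HET were above the WT median. Of the 44 carriers, 32 had a log2 fold change above 0 in HET against WT (median 0.06), where 48.8% of all genes did (median -0.00). Within the earlier-numbered pigs 27 carriers were above 0 (median 0.05), and within the later-numbered pigs 23 (median 0.01). Of the 14 proximal tubule markers 12 also lay above 0 in HET against WT (median 0.21). Of 10 erythroid genes 7 lay above 0 there (median 0.34), with 3 higher and 1 lower at an unadjusted p under 0.05 in edgeR. Of 4 adipocyte genes 3 lay below 0 (median -0.97), all 3 at an unadjusted p under 0.05. WT libraries varied widely in this list, with 1.17 ± 2.40 CPM of ADIPOQ (mean and SD). The list's mean log2 CPM ran from -0.48 to 1.66 in WT (median -0.14) and from -1.09 to 0.30 in HET (median -0.57). None of these markers passed, and their part in the carriers' values was not tested. EIF1AY was above 1 CPM in 5 of 6 libraries labelled HET and 2 of 6 WT. With EIF1AY as a covariate the log2 fold change of SLC25A6 was 0.29 (SE 0.115) and that of SLC25A29 was 0.54 (SE 0.140, edgeR adjusted p = 0.315), and that of SLC25A17 was 0.28 (edgeR adjusted p = 0.709). In CF against HET 0.0% of 21434 genes passed in edgeR, with 2107 (9.83%) at an unadjusted p under 0.05, and DESeq2 called 63. 0 carriers passed by either, and 6 carriers reached an unadjusted p under 0.05 in edgeR, led by SLC25A36 with 0.33 (SE 0.085, adjusted p = 0.224). That count of 6 went to 3 without HET pig 21 and to 10 without HET pig 13.

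Among members with a WT median of at least 1 TPM, SLC25A41, SLC25A20 and SLC25A5 had the largest spread among WT libraries, with a highest CPM 2.45, 2.41 and 2.30 times the lowest. SLC25A5 had 119 to 207 CPM in the 4 earlier-numbered WT pigs, and 249 to 273 CPM in the 2 later-numbered ones. SLC25A20 had 34.6 to 51.7 CPM in the former, and 66.7 to 83.4 CPM in the latter. SLC25A41 had 2.07 to 3.47 CPM, and 3.77 to 5.09 CPM. The 2 sets did not overlap among WT libraries for any of these 3 genes. Nor did they for SLC25A36, with 102 to 124 CPM in the earlier- and 139 to 149 CPM in the later-numbered WT pigs. Such a gap between the sets was found in 18 of 44 carriers, where 27.7% of all genes had one.

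Over all genotypes, weighted equally, the later-numbered pigs were higher in 29 of 44 carriers, with a median difference of 0.13 on the log2 CPM scale where the median over all genes tested was -0.00. The sets were found in the data, so these differences are descriptions and were not tested. Beyond 0.3 in either direction were 12 of 44 carriers (27.3%), where 17.1% of all genes tested lay so far apart. SLC25A5 was 0.68 higher, at 157 ± 30.8 CPM in 13 earlier-numbered and 241 ± 51.6 CPM in 10 later-numbered pigs (mean and SD). SLC25A15 was 0.51 higher, at 223 ± 43.0 and 333 ± 57.9 CPM.

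SLC25A10 was 0.43 higher, SLC25A4 0.41 and SLC25A3 0.37 in the later-numbered pigs on the same scale. The members that were lower there were led by SLC25A35 at -0.64, SLC25A47 at -0.39, SLC25A34 at -0.35 and SLC25A42 at -0.34. SLC25A6, the most abundant member, differed by 0.08. The mean log2 CPM of the 14 proximal tubule markers moved with the sets, at 8.02 to 8.92 in earlier- and 8.54 to 9.01 in later-numbered pigs, and its part in these differences was not tested.

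The CF against non-CF difference was also taken within each set. Among 13 earlier-numbered libraries 0.0% of 21038 genes passed in edgeR, with 1958 genes (9.31%) at an unadjusted p under 0.05, and 0 carriers passed, with 4 at an unadjusted p under 0.05. SLC25A36 had 146 to 187 CPM in the 6 CF libraries of that set and 102 to 128 CPM in the 7 non-CF libraries. It was the 1 carrier whose groups did not overlap there, where 0.627% of all genes had groups apart. Its log2 fold change was 0.44 (SE 0.072, edgeR adjusted p = 0.0852), and in the later-numbered pigs it was 0.23 (SE 0.104, edgeR adjusted p = 0.274).

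Among 10 later-numbered libraries 2.27% of 20882 genes passed in edgeR and 4 of 44 carriers did. At an unadjusted p under 0.05 were 16 carriers, 13 of them lower in CF, where 17.4% of all genes reached it and 8.88% did so lower in CF. SLC25A45 rose, with 33.1 to 63.0 CPM in the 5 CF libraries and 19.4 to 28.3 CPM in the 5 non-CF libraries (log2 fold change 0.93, SE 0.166, edgeR adjusted p = 0.0138). SLC25A34 fell, with 3.51 to 12.5 CPM against 14.6 to 26.7 CPM (log2 fold change -1.38, SE 0.288, edgeR adjusted p = 0.0262). These groups did not overlap.

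SLC25A5 fell in the later-numbered pigs, with 163 to 229 CPM in CF and 249 to 317 CPM in non-CF libraries (log2 fold change -0.50, SE 0.107, edgeR adjusted p = 0.0299). SLC25A20 fell, with 34.9 to 44.7 CPM against 45.7 to 83.4 CPM (log2 fold change -0.59, SE 0.134, edgeR adjusted p = 0.0391). In that set 7 of 44 carriers had groups that did not overlap, where 4.64% of all genes did. The other 3 were SLC25A11, SLC25A15 and SLC25A43.

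**Figure D4:**
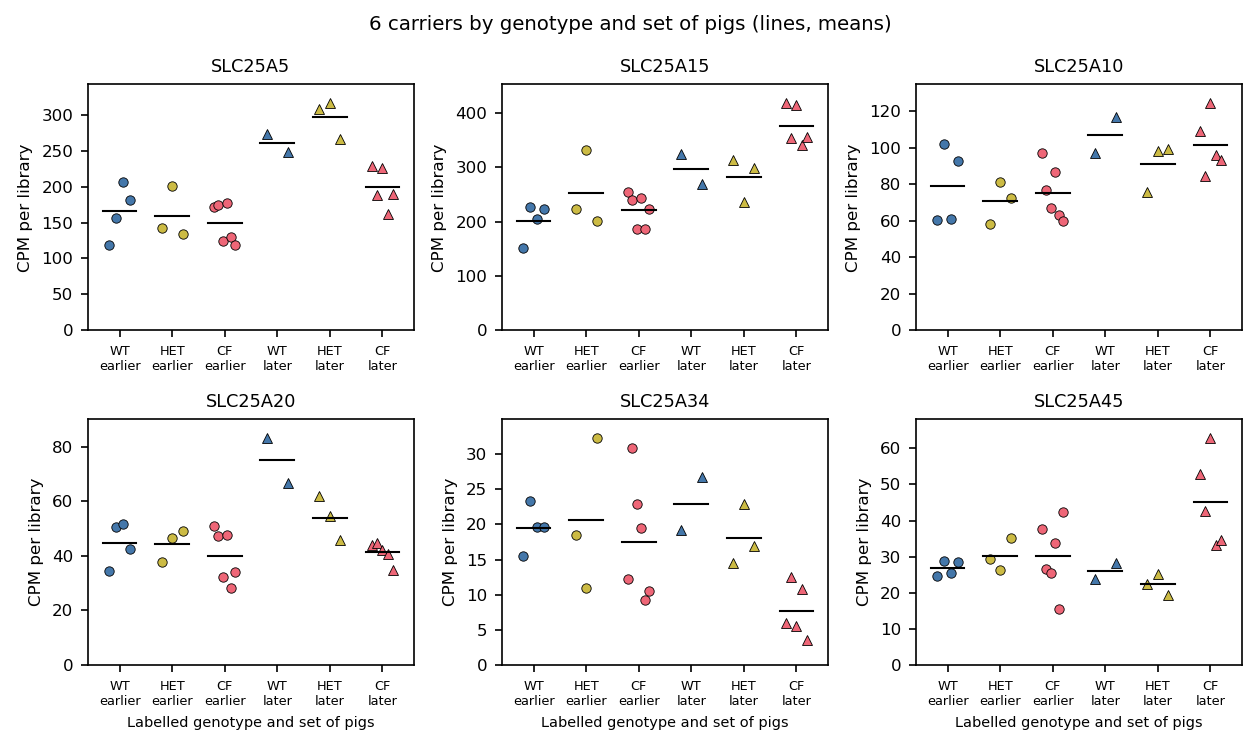
CPM of 6 carriers in each library by labelled genotype and set of pigs, with lines at the means, circles for earlier- and triangles for later-numbered pigs. Later-numbered CF libraries lie below the non-CF libraries of their set for SLC25A5, SLC25A20 and SLC25A34 and above them for SLC25A15 and SLC25A45, while in the earlier-numbered pigs the genotypes overlap for all 6.

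A call in the later- and none in the earlier-numbered pigs does not show that the sets differ, so the difference itself was tested as an interaction in edgeR. It passed in 0.0191% of 20921 genes and in 0 of 44 carriers. Of the 44 carriers 33 had a difference below 0 (median -0.18), where the median over all genes was 0.0006. The carriers were not tested as a set. At an unadjusted p under 0.05 were 6 carriers, where 10.1% of all genes reached it. They were SLC25A26 with -0.40 on the log2 scale (SE 0.123, adjusted p = 0.230), SLC25A45 with 0.83 (SE 0.264, adjusted p = 0.250), SLC25A42 with -0.59, SLC25A34 with -1.20, SLC25A46 with -0.30 and SLC25A4 with -0.48.

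**Figure D5:**
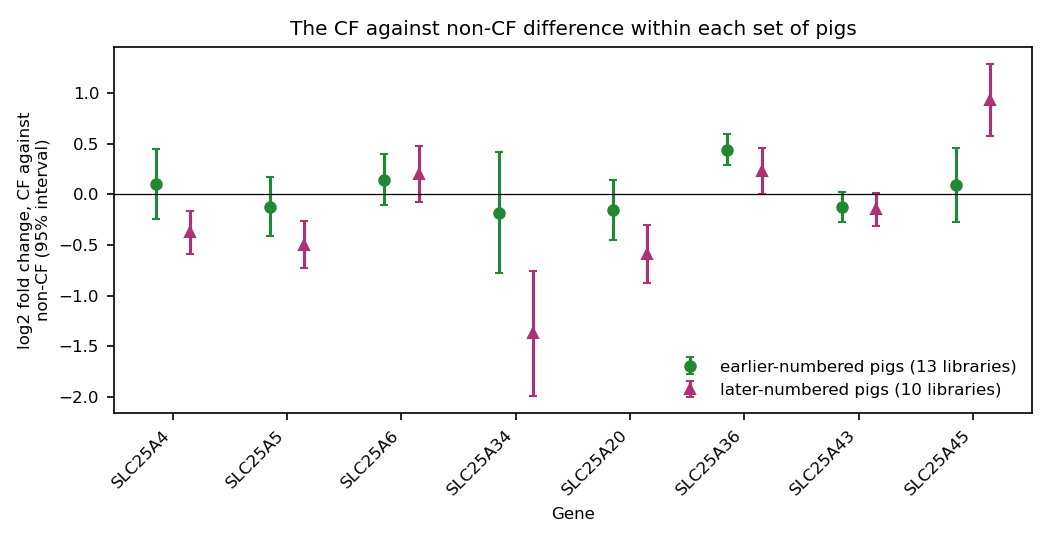
Log2 fold change of libraries labelled CF against non-CF for 8 carriers, fitted within the 13 earlier-numbered and the 10 later-numbered pigs, with 95% intervals. SLC25A6, SLC25A36 and SLC25A43 have the same sign and overlapping intervals in both sets, and the later-numbered pigs lie lower for SLC25A34 and higher for SLC25A45.

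4 carriers with a known place of action were set against marker genes of that place over the 23 libraries, with Pearson's r, Spearman's rho and 100000 permutations. SLC25A10 was related to the mean log2 CPM of the 14 proximal tubule genes, with r = 0.62 (permutation p = 0.0019, adjusted over the 4 relations 0.0076) and rho = 0.56 (permutation p = 0.0066, adjusted 0.0266). Without the 2 libraries farthest from the median r was 0.48 (permutation p = 0.0263). Within the 13 earlier-numbered pigs r was 0.32 (permutation p = 0.279) and within the 10 later-numbered pigs 0.56 (permutation p = 0.0939), so the relation did not pass within either set.

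SLC25A30, known as the kidney mitochondrial carrier, had r = -0.01 (permutation p = 0.960) and rho = 0.04 (permutation p = 0.870). The mitoferrin of red cell precursors, SLC25A37, had r = 0.07 (permutation p = 0.756) and rho = 0.08 (permutation p = 0.722) with 10 erythroid genes. SLC25A38 had r = -0.13 (permutation p = 0.564) and rho = -0.07 (permutation p = 0.751). On log2(TPM + 1) in place of log2 CPM its r was -0.465 (permutation p = 0.0246) and its rho -0.42 (permutation p = 0.045), not adjusted over the 4 relations. After adjustment over the 4 relations these 3 values of r had p = 0.960. Within sets, r of SLC25A37 was -0.15 in the earlier-numbered (permutation p = 0.628) and 0.75 in the later-numbered pigs (permutation p = 0.0157).

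Genes that work beside the carriers were taken from fixed lists. Of 44 such genes 0 passed in libraries labelled CF against non-CF. There 9 had a log2 fold change above 0 and 35 below (median -0.10), where 49.8% of all genes lay above 0. All 12 genes of the import and insertion of carriers, such as TIMM29, AGK and TIMM22, lay below 0, between -0.19 and -0.06, with none at an unadjusted p under 0.05 in edgeR. All 3 pores of the outer membrane lay below 0, with VDAC1 at -0.20 (SE 0.083, edgeR adjusted p = 0.277). Of 17 other inner membrane transporters 13 were below 0, led by ABCB8 at -0.36 and SFXN3 at -0.31.

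In HET against WT the same 12 import genes all lay above 0, with a median of 0.10 and none at an unadjusted p under 0.05. In that comparison 48.8% of all genes lay above 0. The libraries labelled HET enter HET against WT and CF against non-CF on opposite sides. In CF against WT 10 of the 12 import genes lay below 0 (median -0.06). Of 5 carriers of the family without an SLC25 symbol, UCP3 had the smallest p in CF against non-CF, at 1.73 on the log2 scale (SE 0.694, edgeR adjusted p = 0.250) at 0.0225 to 7.97 TPM. MTCH2 had -0.23 and UCP2 0.34, and neither passed. Of 7 genes of mitochondrial content and its regulators 0 passed in CF against non-CF, with 5 below 0 (median -0.03). CS, the citrate synthase often used as a measure of mitochondrial content, had -0.15 (SE 0.087, edgeR adjusted p = 0.469). The regulators NRF1 and TFAM were at 0.10 and 0.15 (edgeR adjusted p = 0.336 and 0.374). In CF against WT 6 of the 7 lay above 0 (median 0.03), and none passed.

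No marker of the proximal tubule or of the distal segments passed in CF against non-CF. Of 14 proximal tubule genes 11 lay above 0 (median 0.11), with AQP1 at 0.68 (edgeR adjusted p = 0.0534) and the lowest, SLC22A6, at -0.39. Of 7 genes of the distal segments 6 lay below 0 (median -0.16), with CALB1 at -1.40 (edgeR adjusted p = 0.0636). UMOD, the distal gene above 0, was at 0.28. The mean log2 CPM of the latter list ran from 6.71 to 7.15 in libraries labelled CF, from 6.75 to 7.64 in HET and from 6.996 to 7.44 in WT, so the CF range overlapped both. In CF against WT, AQP1 was higher (log2 fold change 0.93, SE 0.187, edgeR adjusted p = 0.0303). Its mean and SD were 266 ± 76.3 CPM in 11 libraries labelled CF and 140 ± 35.7 CPM in 6 WT. In that comparison 12 of the 14 proximal tubule genes lay above 0 (median 0.21), and the lowest was at -0.74. Of the 7 distal genes 6 lay below 0 there (median -0.27), and none passed. In edgeR 4 of them had an unadjusted p under 0.05, which 14% of all genes reached. UMOD, the distal gene above 0, reached it too, at 0.52 (edgeR p = 0.0289). Of 10 erythroid genes 7 lay below 0 in CF against non-CF (median -0.18), and 5 in CF against WT (median 0.00). Of 4 adipocyte genes 3 lay below 0 in CF against WT (median -0.77), 2 of them at an unadjusted p under 0.05 in edgeR, and none passed. Those 2, ADIPOQ and PLIN1, had 1.17 ± 2.40 and 0.53 ± 0.75 CPM in WT (mean and SD), so the SD exceeded the mean. In CF they had 0.21 ± 0.17 and 0.19 ± 0.16 CPM. The mean log2 CPM of the list had a median of -0.14 in both WT and CF, with a highest value of 1.66 in WT and 0.54 in CF. The part of these cell types in the values of the carriers was not tested.

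The carriers differ in how surely reads can be assigned to them. More than 10% of the 31-base runs of 6 members also occur in transcripts of other genes, and 14 members overlap a gene on the other strand, among them SLC25A10, SLC25A11 and SLC25A43. With 27 of 44 members having at least 2 transcripts that each held 5% or more of the summed TPM in the median WT library, a change in the proportions of transcripts can move a summed count.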

How the data were processed

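The authors pseudoaligned the reads of stranded, ribosome-depleted total RNA to pig transcripts of Sscrofa11.1 with kallisto and deposited, per transcript and library, an estimated count (not normalized) and a TPM value. Its strand setting is not given in the sources used here. The labels give no sex, litter or date, and p-values measure the spread between pigs.

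Estimated counts of 77689 transcripts were summed by symbol and rounded, and TPM values were summed unrounded. All genes kept by filterByExpr, scaled with TMM, went through the quasi-likelihood test of edgeR 4.0.16 (R 4.3.3) with Benjamini-Hochberg adjustment and a limit of 0.05. CF against non-CF was a fit of 2 groups, and the pairwise comparisons came from a fit of 3 groups. Log2 CPM used a prior count of 2. DESeq2 1.42.0, limma 3.58.1 (voom), an exact Mann-Whitney U test on median-of-ratios counts (asymptotic where values were tied), other filters and scalings, the pig set and EIF1AY as terms, and each library left out were alternatives. Positions and sequences came from RefSeq on Sscrofa11.1. Python 3.11.15, scipy 1.17.1, pandas 2.3.3 and matplotlib 3.10.9 were used. The fits were tested on simulated data. Libraries of 1 group differed far beyond counting error (chi-square per degree of freedom of at least 23.5 in every pair), so none was a copy.

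The members and lists were chosen with earlier results of these data known. Members were named by rule: the 8 highest by WT TPM, the smallest p values (5, 3 and 3 members for CF against non-CF, HET against WT and CF against WT), every member called, the 3 with the largest WT spread of those with at least 1 TPM, and those at the threshold. SLC25A34, the members named within sets or for an unadjusted p, and the import, marker and partner genes beyond the 3 smallest p values of a list were named after their values were seen. The values of 1 member are not reported here, although it is included in the counts and medians over the carriers.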

Additional observations from a re-analysis of the deposited data

Results flagged for a closer look

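The highest or lowest library was checked for every carrier within the 6 WT and the 6 HET libraries, 88 groups in all, and 5 stood apart by Dixon's 95% criterion, where chance alone flags about 1 group in 20. SLC25A17, the peroxisomal cofactor carrier, had 82.2 CPM in HET pig 19, with 63.1 to 69.6 CPM in the other 5 HET libraries. SLC25A16 had 14.02 CPM in HET pig 20, with 12.8 to 13.2 in the others. SLC25A44, the carrier of branched-chain amino acids, had 45.3 CPM in HET pig 21, with 37.7 to 39.9 in the others. SLC25A47 had 3.23 CPM in HET pig 13, with 1.11 to 1.73 in the others. SLC25A21, the oxoadipate carrier, had 15.7 CPM in WT pig 16, with 19.7 to 21.9 in the others. The 5 values came from 5 pigs. No carrier passed the test of a difference of the CF effect between the sets of pigs.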

How the results depend on the processing

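SLC25A36 kept its direction in CF against non-CF under every alternative run, and the calls depended on the method. Genes called there numbered 73, against 515 with DESeq2, 46 with limma-voom, 148 with the pig set as a term, 0 and 473 in the earlier- and later-numbered pigs alone, 45 with EIF1AY as a covariate and 46 with the Mann-Whitney U test. Carriers called numbered 1, against 3 with DESeq2 (SLC25A36, SLC25A43 and SLC25A45), 2 with the Mann-Whitney U test, 0 and 4 in the 2 sets, and 0 with length-scaled counts. Without the 3 libraries with high FOS, an early-response gene (CF pig 1, WT pig 12 and HET pig 20), 4 genes and 0 carriers were called, with SLC25A36 at an edgeR adjusted p of 0.0799. These last alternatives and the fit of transcripts were chosen after seeing the data. Leaving out 1 library gave 17 (without HET pig 21) to 203 genes (without CF pig 4) and 0 to 1 carriers.

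In CF against WT, 72 genes became 575 with DESeq2, 139 with upper-quartile factors, 172 with the pig set as a term, 7 in the earlier-numbered pigs and 18 without the high-FOS libraries. Carriers called, 0 in the report, became 2 with DESeq2 (SLC25A36 and SLC25A6), 1 with the pig set as a term (SLC25A36) and 1 in the later-numbered pigs. Leaving out 1 library gave 20 (without WT pig 12) to 187 genes (without WT pig 23) and 0 to 1 carriers. In HET against WT, 1 gene became 34 with DESeq2 and 17 in either set, and 1 to 3 with a library left out. In CF against HET, 0 genes became 63 with DESeq2, 4 with upper-quartile factors, with the filter of 10 counts and with the pig set as a term, 1 with no filter, 1 with EIF1AY, 525 in the later-numbered pigs (2 carriers), and 0 to 3 with a library left out. The causes were not tested.

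Of 750 alternatives over 21 values of single carriers, 18 reversed, all for SLC25A4, SLC25A10 or SLC25A41 in CF against non-CF. With all libraries SLC25A10 and SLC25A41 were near 0, at 0.04 and 0.002, and SLC25A4 was at -0.12. SLC25A4 turned to 0.1063 in the earlier-numbered pigs. SLC25A10 turned to -0.004453 there and ran from -0.0209 (without CF pig 9) to 0.0879 with a library left out. SLC25A41 turned to -0.0132 with limma-voom, -0.005878 with upper-quartile factors, -0.0005123 with the filter of 10 counts, -0.02958 with the pig set as a term and -0.2014 in the earlier-numbered pigs, and ran from -0.0877 to 0.0678 with a library left out. By CPM in place of TPM, 5 of the 8 highest carriers were the same.

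Of the relations, r of SLC25A10 was 0.3245 and 0.5572 in the earlier- and later-numbered pigs. That of SLC25A37 was -0.1487, 0.7465 and, on log2(TPM + 1), -0.06485. That of SLC25A38 was 0.04319 without the 2 farthest libraries, 0.1079 in the later-numbered pigs and -0.465 on log2(TPM + 1). That of SLC25A30 was 0.1854 in the earlier-numbered pigs and 0.1156 on log2(TPM + 1). No analysis paired by litter was possible because litter is not labelled, so any littermates were treated as independent. Depth limited SLC25A31, which had at most 14 counts in a library.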
